A study of Homo sapiens with 18 samples.

Results

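Vimentin and the contractile cytoskeleton genes are 10 genes, VIM, ACTA2, ACTG2, TAGLN, TPM1, TPM2, MYL9, CNN1, CNN2 and CALD1. They were chosen by symbol from the 35933 genes that had values in the expression table, and all 10 were found. The RNA of 3 related human breast epithelial cell lines was sequenced. MCF10A is a non-tumorigenic line, MCF10AT1 is its HRAS-transformed premalignant derivative and MCF10CA1h is a malignant derivative. Each line gave 3 control libraries, from cells that received a control sgRNA with Cas9, and 3 libraries labelled Mettl3 knockdown, from cells that received Cas9 with an sgRNA against exon 1 of METTL3. METTL3 is the enzyme that writes N6-methyladenosine on mRNA. All lines grew in the same medium with horse serum, insulin, hydrocortisone, cholera toxin and epidermal growth factor. Cells of both arms were sorted for mCherry and taken through selection of single-cell clones, and each line was studied here as 1 negative control line and 1 knockdown line, so the 3 libraries of a group do not stand for separate clones. The labels do not say that replicates a, b and c came from separate cultures, and the p-values below measure only the spread between these libraries.

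Vimentin forms the intermediate filaments of mesenchymal cells and is the textbook marker of the epithelial to mesenchymal transition, although basal-like breast epithelial lines grown on plastic also make it. The other genes build or regulate contractile actin bundles. Smooth muscle cells and myofibroblasts use the actins ACTA2 and ACTG2, which slide on myosin carrying the regulatory light chain MYL9, while tropomyosins (TPM1, TPM2), calponins (CNN1, CNN2), caldesmon (CALD1) and transgelin (TAGLN) decorate the filament and set its stability and its access to myosin. In the breast, myoepithelial cells carry the same contractile set. Many of these genes are known targets of serum response factor (SRF), which binds an element called the CArG box and works with the cofactors MRTFA and MRTFB.

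In hg38 (GENCODE v44) VIM lies at chr10:17228241-17237593 and ACTA2 at chr10:88935074-88991339, ACTG2 at chr2:73892314-73919865, TAGLN at chr11:117199370-117207464 and TPM1 at chr15:63042620-63071915. TPM2 lies at chr9:35681992-35690056, MYL9 at chr20:36541497-36551447, CNN1 at chr19:11538767-11550323, CNN2 at chr19:1026586-1039068 and CALD1 at chr7:134744252-134970729. The counts cover whole genes, exons of all isoforms included. Promoter windows of 300 bases, from 250 bases before to 50 after a start site, were found in RefSeq (GRCh38.p14) for 8 of the 10 genes, 13 windows in all. The CArG box was searched only as CC, a run of A or T letters and GG, so boxes with another letter inside were not counted. It was present in 2 of the 13 windows, those of ACTG2 and CNN2, against 1.29% of all 35116 promoter windows. Stretches before the RefSeq start sites of these 2 genes are shown because they carry the SRF element, with the CArG boxes in capitals.
ACTG2 promoter: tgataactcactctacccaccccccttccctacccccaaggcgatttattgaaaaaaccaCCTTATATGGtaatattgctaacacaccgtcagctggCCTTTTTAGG
CNN2 promoter: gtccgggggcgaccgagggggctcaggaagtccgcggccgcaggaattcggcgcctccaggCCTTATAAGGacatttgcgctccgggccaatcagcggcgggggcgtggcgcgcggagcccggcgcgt
The ACTG2 stretch is chr2:73892838-73892944 on the plus strand, with CArG boxes that begin 110 and 73 bases before the start site, and the CNN2 stretch is chr19:1026458-1026585 on the plus strand, with its CArG box 89 bases before the start site. The ACTG2 stretch lies inside the GENCODE gene, whose annotated start is farther upstream, and the CNN2 stretch ends just before the GENCODE gene. TATAAA on either strand was found in 11.5% of all windows and in those of ACTG2, 31 bases before the start, and CALD1. The VIM window held neither element. It held the letters GGGCGG, a core of the GC box, 46 bases before the start, as did 45% of all windows on either strand, and it is shown because VIM moved most, with these letters in capitals. This motif was added after the values were seen.
VIM promoter: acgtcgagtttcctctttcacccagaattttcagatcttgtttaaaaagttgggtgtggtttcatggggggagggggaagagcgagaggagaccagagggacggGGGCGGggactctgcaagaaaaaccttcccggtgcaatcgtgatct
The VIM stretch is chr10:17228091-17228240 on the plus strand and ends just before the first exon. These matches describe the sequence and say nothing of what binds there.

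The RNA of the targeted gene did not follow the labels in every line. The study checked the knockdown lines by METTL3 protein on Western blots, which these RNA levels do not measure. It also reported METTL3 RNA by real-time PCR, where the effect was smaller but the knockdown lines still showed a relative decrease. The mean METTL3 level in the libraries labelled knockdown was 128% of control in MCF10A, 88.5% in MCF10AT1 and 70.8% in MCF10CA1h, with exact two-sided permutation p = 0.3, p = 0.3 and p = 0.1, the last being the smallest p that 3 against 3 libraries allow. By limma METTL3 was lower in MCF10CA1h (BH-adjusted p = 0.0234), a call that was lost without control replicate c or knockdown replicate b (BH-adjusted p up to 0.0906), without the intensity trend (BH-adjusted p = 0.0742) and in a joint fit of all 18 libraries (BH-adjusted p = 0.501). FLNA, the actin crosslinker filamin A, was at 10433 to 33426 normalized counts in the 9 libraries of MCF10A and of MCF10AT1 control, and at 394 to 1001 in the 9 libraries of MCF10AT1 knockdown and of MCF10CA1h. Its neighbour on the X chromosome, EMD, a gene named after its values were seen, was at 1065 to 1582 in the former 9 and at 0 to 3.31 in the latter 9. The knockdown libraries of MCF10AT1 therefore stood with MCF10CA1h and apart from their own control for these genes, and an effect of the sgRNA, a difference between clones and another line of origin of these 3 libraries cannot be told apart. ACTA2 went the other way, at 687 to 906 in the MCF10AT1 knockdown libraries, 807 to 1425 in their controls and 89.7 to 162 in MCF10CA1h. The origin of the MCF10AT1 libraries labelled knockdown was not tested. Every MCF10AT1 difference below compares them with the MCF10AT1 controls under that limit. Sums of normalized counts were 21347352 to 31681834 per library, and the read depth is unknown.

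Of the tested members and lines, the largest change with the knockdown label was in VIM, which rose 16.8-fold (ratio of group means) in MCF10AT1 with the knockdown label. It was also the lowest in MCF10AT1 among the control libraries. The smooth muscle genes TAGLN and MYL9 rose in MCF10CA1h, by 6.39-fold and 2.46-fold (ratios of group means). In MCF10A no tested member passed the threshold, a BH-adjusted p under 0.05 by limma, and VIM, TPM1 and TPM2 had unadjusted p-values under 0.05. A difference in these bulk libraries cannot tell fewer cells of a type from less RNA per cell.

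Members with a mean of at least 10 normalized counts over the libraries of a fit were tested. This left 7 of 10 in MCF10A, where MYL9, ACTG2 and CNN1 were below the limit, and 8 of 10 in the other lines, in the control comparisons and in the tests of differences between lines, where ACTG2 and CNN1 were below it. With the knockdown label, 0 of 7 members passed in MCF10A, against 2.65% of all genes tested, 1 of 8 in MCF10AT1 against 13% and 2 of 8 in MCF10CA1h against 12.8%. The tested members had a median log2 difference of -0.46 for MCF10A, 0.49 for MCF10AT1 and 0.24 for MCF10CA1h, beside medians over all tested genes of -0.0035, 0.021 and -0.019. The knockdown and control libraries did not overlap for 2 of 7 tested members in MCF10A against 23.9% of genes, for 3 of 8 in MCF10AT1 against 32.8% and for 3 of 8 in MCF10CA1h against 32.7%. Between control libraries, 7 of 8 members differed between MCF10AT1 and MCF10A against 28.1% of genes, 4 of 8 between MCF10CA1h and MCF10A against 37.8%, and 4 of 8 between MCF10CA1h and MCF10AT1 against 21.8%. The knockdown difference itself differed for 2 of 8 members between MCF10AT1 and MCF10A against 21.6% of genes, for 1 of 8 between MCF10CA1h and MCF10A against 5.34%, and for 2 of 8 between MCF10CA1h and MCF10AT1 against 18.2%. MYL9, with a mean under 10 in MCF10A, entered the control and interaction tests through the other lines, so its calls against MCF10A are no support for these counts. The comparisons of a line share its control libraries and are not independent of each other.

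**Figure D1:**
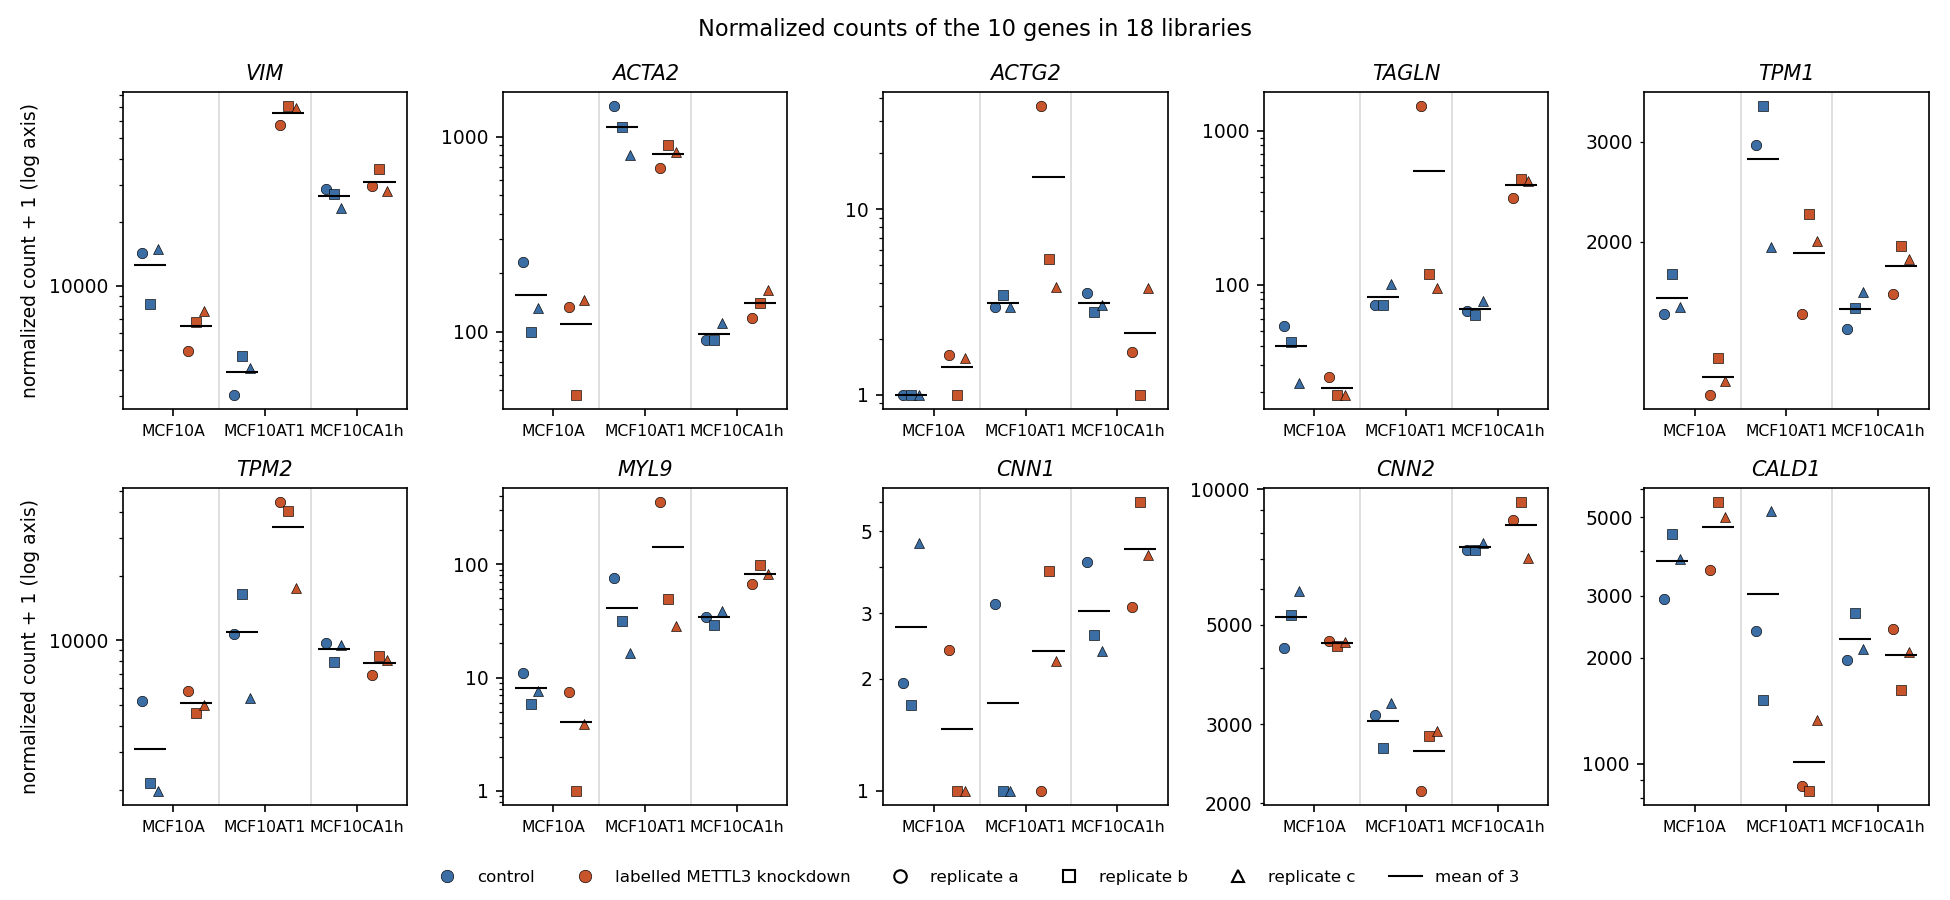
Normalized counts plus 1 (log axis) of the 10 genes in each of the 18 libraries, 3 lines with control in blue and libraries labelled METTL3 knockdown in orange; symbols mark replicates a, b and c and bars the mean of 3. VIM sits between 57647 and 70635 in the MCF10AT1 knockdown libraries and between 3055 and 4640 in their controls, and for TAGLN and MYL9 the replicate a of the MCF10AT1 knockdown stands apart.

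VIM had 14346, 8203 and 14966 normalized counts in the MCF10A control libraries and 4919, 6753 and 7619 in the knockdown libraries, in the order of replicates a, b and c. In MCF10AT1 the controls held 3055, 4640 and 4069 and the knockdown libraries 57647, 70635 and 69297. In MCF10CA1h the controls held 28825, 27287 and 23486 and the knockdown libraries 29655, 35776 and 28083. The groups did not overlap in MCF10A, where the knockdown was lower, nor in MCF10AT1, where it was higher, and they overlapped in MCF10CA1h. By mean level the order was MCF10AT1 knockdown, MCF10CA1h knockdown, MCF10CA1h control, MCF10A control, MCF10A knockdown and MCF10AT1 control, and the neighbours that overlapped were the 2 groups of MCF10CA1h. In MCF10AT1 the log2 difference was 4.08 ± 0.28 (SE, n = 3 and 3, limma, BH-adjusted p = 8.87e-05), and the call held under every alternative run, leaving out each library included. In MCF10A it was -0.93 ± 0.27, a 1.94-fold lower mean (limma, BH-adjusted p = 0.113), and it passed the threshold with the replicate letter as a block (BH-adjusted p = 0.0421) and in a joint fit of all 18 libraries (BH-adjusted p = 0.0349). In MCF10CA1h it was 0.23, with a 95% interval of -0.029 to 0.49 (limma, BH-adjusted p = 0.231).

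The change of VIM in MCF10AT1 exceeded that in MCF10A by 5.02 ± 0.33 on the log2 scale (limma interaction, BH-adjusted p = 2.1e-08). The change in MCF10CA1h was lower than that in MCF10AT1 by 3.86 ± 0.33 (log2 difference -3.86, limma interaction, BH-adjusted p = 4.39e-07). Both held in all alternatives. The change in MCF10CA1h minus that in MCF10A was 1.16 (limma interaction, BH-adjusted p = 0.052), and this value passed with the replicate block (BH-adjusted p = 0.0286) or without MCF10A control replicate b (1.44, BH-adjusted p = 0.0126), MCF10AT1 control replicate b or MCF10AT1 control replicate c. Among controls, VIM was lower in MCF10AT1 than in MCF10A by 1.64 (log2 difference -1.64 ± 0.26, limma, BH-adjusted p = 0.00367). It was higher in MCF10CA1h than in MCF10A by 1.13 ± 0.26 (limma, BH-adjusted p = 0.00914) and than in MCF10AT1 by 2.77 ± 0.26 (limma, BH-adjusted p = 0.000214). All 3 calls held when each control library was left out.

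The antisense gene VIM-AS1, which overlaps the start of VIM, was at 20.4 to 74.7 normalized counts in the 18 libraries. Of the 31-base words of the main VIM transcript, 28.8% also occur in VIM-AS1 when strand is ignored, and whether the counting used strand is not given in the sources used here. VIM-AS1 was at 20.4 to 23.3 in the MCF10AT1 knockdown libraries, where VIM was high, and at 27.7 to 49.0 in their controls.

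**Figure D2:**
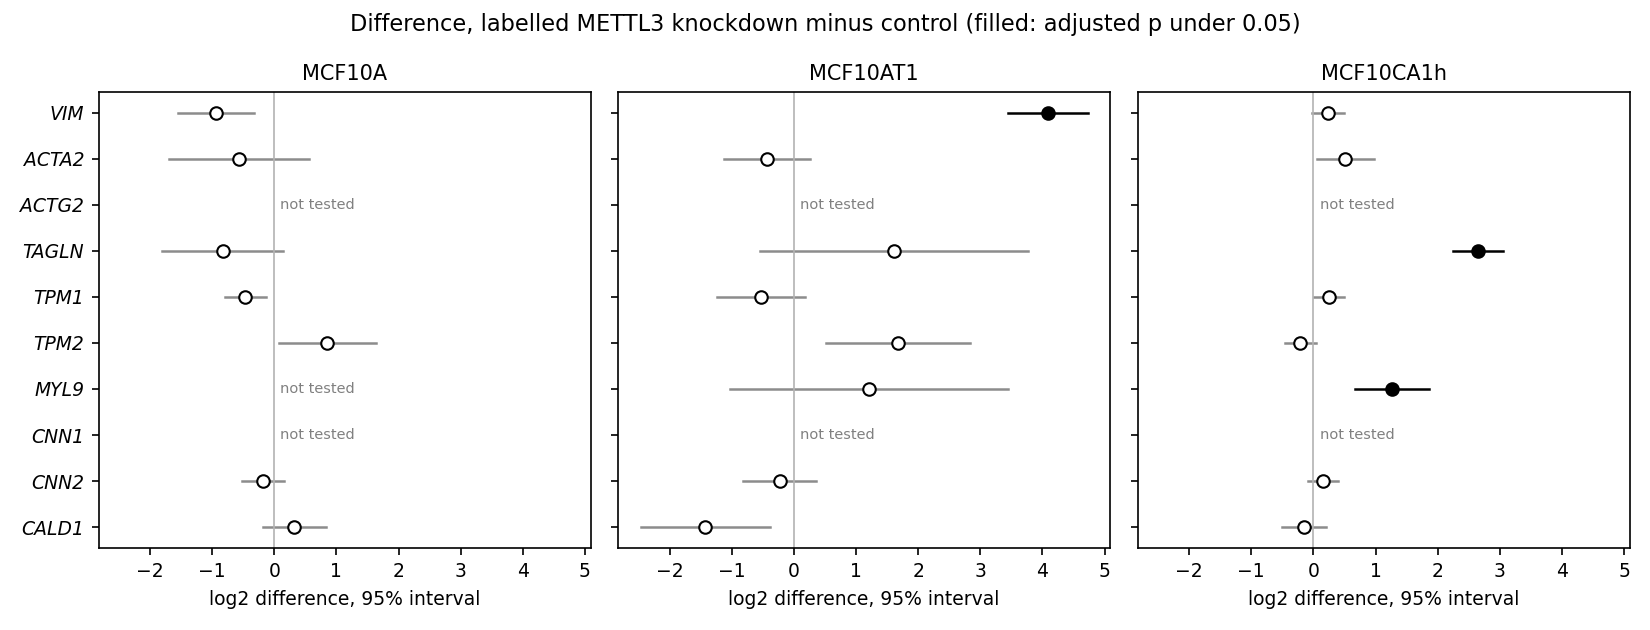
Log2 difference of each gene between libraries labelled METTL3 knockdown and control in 3 lines (x axis, log2), with 95% intervals from limma; filled points passed a BH-adjusted p under 0.05 and genes below the level limit are marked as not tested. VIM in MCF10AT1 (4.08) and TAGLN and MYL9 in MCF10CA1h (2.65 and 1.27) are the filled points.

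ACTA2 encodes the smooth muscle alpha actin that marks myofibroblasts and myoepithelial cells. The MCF10A controls held 226, 99.1 and 132 normalized counts and the knockdown libraries 133, 46.5 and 145. The MCF10AT1 controls held 1425, 1118 and 807 and the knockdown libraries 687, 906 and 831, and the MCF10CA1h controls held 89.7, 90.1 and 109 and the knockdown libraries 116, 138 and 162. ACTA2 was thus high in both MCF10AT1 groups and low in the other 4, which overlapped their neighbours in the order of levels. Control MCF10AT1 exceeded control MCF10A by 2.91 ± 0.34 on the log2 scale (limma, BH-adjusted p = 0.000862), and control MCF10CA1h was lower than control MCF10AT1 (log2 difference -3.49 ± 0.34, limma, BH-adjusted p = 0.000236). Both calls held in all alternatives, while control MCF10CA1h against control MCF10A was -0.58 (95% interval -1.33 to 0.18, limma, BH-adjusted p = 0.2). With the knockdown label the log2 differences were -0.57 in MCF10A (BH-adjusted p = 0.596), -0.44 in MCF10AT1 (BH-adjusted p = 0.394) and 0.51 in MCF10CA1h (BH-adjusted p = 0.133), all by limma. The groups did not overlap in MCF10CA1h, where the 95% interval was 0.058 to 0.97. Of the 31-base words of ACTA2, 32.7% occur in its antisense gene ACTA2-AS1, which was at 0 to 10.5 normalized counts.

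ACTG2, the enteric smooth muscle gamma actin, was listed at 0 in all 3 MCF10A controls and at 0 to 0.64 in the MCF10A knockdown libraries. In MCF10AT1 it was at 1.96, 2.45 and 1.97 in the controls and at 34.8, 4.37 and 2.79 in the knockdown libraries. In MCF10CA1h it was at 1.80 to 2.55 in the controls and at 0 to 2.74 in the knockdown libraries. Only replicate a of the MCF10AT1 knockdown was above 10, and no test was made. The striated muscle actins ACTA1 and ACTC1 stayed between 0 and 6.88 in all 18 libraries.

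TPM1 and TPM2 encode tropomyosins, coiled-coil proteins that lie along the actin filament. For TPM1 the MCF10A controls held 1492, 1753 and 1538 normalized counts and the knockdown libraries 1077, 1252 and 1138. The MCF10AT1 controls held 2963, 3461 and 1959 and the knockdown libraries 1490, 2238 and 2005, and the MCF10CA1h controls held 1406, 1528 and 1630 and the knockdown libraries 1620, 1968 and 1862. The MCF10A groups did not overlap, with the knockdown lower, and those of the other lines overlapped. The log2 difference was -0.46 ± 0.15 in MCF10A (limma, BH-adjusted p = 0.143), -0.53 ± 0.31 in MCF10AT1 (limma, BH-adjusted p = 0.313) and 0.25 ± 0.11 in MCF10CA1h (limma, BH-adjusted p = 0.164). Control MCF10AT1 was higher than control MCF10A by 0.77 ± 0.22 (limma, BH-adjusted p = 0.0318) and control MCF10CA1h lower than control MCF10AT1 (log2 difference -0.84 ± 0.22, limma, BH-adjusted p = 0.0262). Control MCF10CA1h and MCF10A differed by -0.066 (95% interval -0.57 to 0.43, limma, BH-adjusted p = 0.835). The call against MCF10A was lost when any of 8 of the 9 control libraries was left out, all except MCF10AT1 replicate c (BH-adjusted p up to 0.0995), and without a filter on low levels (BH-adjusted p = 0.0558) or without the intensity trend (BH-adjusted p = 0.0514). The call against MCF10AT1 was lost without MCF10AT1 replicate a or any of the 3 MCF10CA1h libraries (BH-adjusted p up to 0.1). The change of TPM1 in MCF10CA1h exceeded that in MCF10AT1 by 0.78 (limma interaction, BH-adjusted p = 0.0397 with the replicate block and 0.0658 without it).

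For TPM2 the MCF10A controls held 5210, 2155 and 1981 normalized counts and the knockdown libraries 5772, 4559 and 4998. The MCF10AT1 controls held 10745, 16566 and 5370 and the knockdown libraries 44195, 40117 and 17621, and the MCF10CA1h controls held 9749, 7946 and 9515 and the knockdown libraries 6890, 8460 and 8124. Replicate a of the MCF10A control lay within its knockdown group, and the MCF10AT1 groups did not overlap, with the knockdown mean 3.12-fold higher (ratio of group means). The log2 difference in MCF10AT1 was 1.68 ± 0.50 (limma, BH-adjusted p = 0.066), and with the replicate letter as a block it passed the threshold (BH-adjusted p = 0.00098). It also passed in the joint fit of 18 libraries (BH-adjusted p = 0.00462), without control replicate b (2.05, BH-adjusted p = 0.0344) or knockdown replicate c (2.10, BH-adjusted p = 0.0364), and when all libraries were scaled to the same sum (1.51, BH-adjusted p = 0.049). In MCF10A it was 0.85 ± 0.34 (limma, BH-adjusted p = 0.23) and it passed without control replicate a (BH-adjusted p = 0.0056). In MCF10CA1h it was -0.21, with a 95% interval of -0.46 to 0.037 (limma, BH-adjusted p = 0.25).

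The change of TPM2 in MCF10CA1h was lower than that in MCF10AT1 (log2 difference -1.89 ± 0.58, limma interaction, BH-adjusted p = 0.0311). That call was lost when any of 8 of the 18 libraries was left out, namely MCF10AT1 control c, MCF10AT1 knockdown a or b, MCF10CA1h control a or c, or any MCF10CA1h knockdown library (BH-adjusted p up to 0.0789). Control MCF10AT1 and control MCF10CA1h exceeded control MCF10A in TPM2 by 1.81 ± 0.45 (limma, BH-adjusted p = 0.0184) and 1.68 ± 0.45 (limma, BH-adjusted p = 0.016). The former call was lost without MCF10A replicate b or c or MCF10AT1 replicate a (BH-adjusted p up to 0.0783), and the latter without MCF10A replicate b or c or MCF10CA1h replicate a or c (BH-adjusted p up to 0.0648). TPM1 and TPM2 share fewer than 1% of their 31-base words with each other, at 0.842% and 0.862%.

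TAGLN encodes transgelin (SM22), an actin-binding protein and early marker of smooth muscle. The MCF10A controls held 52.5, 41.6 and 21.98 normalized counts and the knockdown libraries 24.0, 18.3 and 18.2. In MCF10AT1 the controls held 72.6, 72.3 and 100.3 and the knockdown libraries 1434, 115.2 and 93.6, and the MCF10CA1h controls held 66.7, 62.2 and 77.1 and the knockdown libraries 366, 482 and 468. All 3 MCF10CA1h knockdown libraries were above all controls of every line, and in MCF10AT1 replicate a alone was far above its group, at 12.4 times the next library of its group. The log2 difference in MCF10CA1h was 2.65 ± 0.18 (limma, BH-adjusted p = 3.27e-05). This call held in every alternative except the joint fit of 18 libraries (BH-adjusted p = 0.0742), whose shared spread includes the MCF10AT1 knockdown group. In MCF10AT1 the log2 difference was 1.62 ± 0.94 (limma, BH-adjusted p = 0.31) and in MCF10A -0.83 ± 0.42 (limma, BH-adjusted p = 0.346).

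The change of TAGLN in MCF10CA1h exceeded that in MCF10A by 3.49 ± 0.98 on the log2 scale (limma interaction, BH-adjusted p = 0.0483). The call was lost when any of 13 of the 18 libraries was left out, all 6 of MCF10A, all 6 of MCF10CA1h and MCF10AT1 control a (BH-adjusted p up to 0.115, log2 values 3.23 to 3.84 over all 18). The call was also lost without a filter (BH-adjusted p = 0.0647), without the intensity trend (BH-adjusted p = 0.0643) and with equal sums (BH-adjusted p = 0.0697). With a pseudocount of 0.5 it was just lost (limma interaction, BH-adjusted p = 0.05003). Without replicate a of the MCF10AT1 knockdown, the change in MCF10CA1h exceeded that in MCF10AT1 by 2.29 (limma interaction, BH-adjusted p = 0.00268), against 1.04 with it (BH-adjusted p = 0.515). Among controls, MCF10AT1 was above MCF10A by 1.13 ± 0.37 (limma, BH-adjusted p = 0.0468). This call was lost without any of 8 of the 9 control libraries, all except MCF10A replicate a (limma, BH-adjusted p up to 0.147). It was also lost with the replicate block (BH-adjusted p = 0.0789), without a filter (BH-adjusted p = 0.0903) and with equal sums (BH-adjusted p = 0.109). A filter at a mean of 50 (limma, BH-adjusted p = 0.0521) and the joint fit of 18 libraries (BH-adjusted p = 0.202) lost it as well. An unnamed gene, ENSG00000280143, holds 65.7% of the 31-base words of the main TAGLN transcript (the form with a long last exon), strand ignored. It was at 14.0 to 21.2 normalized counts in the MCF10CA1h knockdown libraries, where TAGLN was high, and at 17.8 to 43.8 in their controls.

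MYL9 encodes the regulatory myosin light chain of smooth muscle, whose phosphorylation starts contraction. It was at 10.04, 4.83 and 6.59 normalized counts in the MCF10A controls and at 6.39, 0 and 2.86 in the knockdown libraries, below the limit for a test. In MCF10AT1 the controls held 75.5, 30.5 and 15.5 and the knockdown libraries 351, 48.0 and 27.5, and the MCF10CA1h controls held 33.1, 28.4 and 37.8 and the knockdown libraries 66.1, 97.1 and 81.2. The MCF10CA1h groups did not overlap, and replicate a was the highest in both MCF10AT1 groups. In MCF10CA1h the log2 difference was 1.27 ± 0.27 (limma, BH-adjusted p = 0.0121). The call was lost without knockdown replicate b (1.13, BH-adjusted p = 0.0587) and in the joint fit of 18 libraries (BH-adjusted p = 0.718). In MCF10AT1 it was 1.21, with a 95% interval of -1.02 to 3.44 (limma, BH-adjusted p = 0.467). With the replicate block the change differed between MCF10AT1 and MCF10A by 2.58 (limma interaction, BH-adjusted p = 0.0163, and 0.132 without the block) and between MCF10CA1h and MCF10A by 2.63 (limma interaction, BH-adjusted p = 0.0389, and 0.25 without the block). The MCF10A side of both values rests on 0 to 10.04 normalized counts, below the limit for a test in that line.

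MYL9 passed the level limit of the control fit only through MCF10AT1 and MCF10CA1h, so it had to differ from MCF10A there. Control MCF10AT1 and MCF10CA1h were above control MCF10A in MYL9 by 2.11 ± 0.57 (limma, BH-adjusted p = 0.0249) and 2.10 ± 0.57 (limma, BH-adjusted p = 0.0173). The former call was lost without MCF10A replicate b or c or MCF10AT1 replicate a (BH-adjusted p up to 0.0914), and in the joint fit of 18 libraries (BH-adjusted p = 0.0527). The latter was lost without MCF10A replicate b or c or MCF10CA1h replicate a or c (BH-adjusted p up to 0.0645). Control MCF10CA1h against control MCF10AT1 was -0.011 (limma, BH-adjusted p = 0.992).

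Calponins bind actin and slow the myosin motor. CNN1, the smooth muscle form, was at 0 to 4.97 normalized counts in all 18 libraries and was not tested. CNN2 is the form of non-muscle cells. Its MCF10A controls held 4431, 5238 and 5945 normalized counts and the knockdown libraries 4594, 4489 and 4581. In MCF10AT1 the controls held 3140, 2652 and 3351 and the knockdown libraries 2132, 2821 and 2898, and the MCF10CA1h controls held 7346, 7346 and 7608 and the knockdown libraries 8550, 9354 and 7033. The lines were separated, with MCF10CA1h highest and MCF10AT1 lowest, and control and knockdown overlapped in each line. The knockdown log2 differences were -0.18 (95% interval -0.53 to 0.16), -0.23 (-0.82 to 0.36) and 0.15 (-0.091 to 0.39) in MCF10A, MCF10AT1 and MCF10CA1h, with BH-adjusted p = 0.577, 0.613 and 0.406 by limma. Among controls, CNN2 was higher in MCF10CA1h than in MCF10AT1 by 1.29 ± 0.17 (limma, BH-adjusted p = 0.00119), which held without any library. It was lower in MCF10AT1 than in MCF10A (log2 difference -0.77 ± 0.17, limma, BH-adjusted p = 0.0138), a call lost without MCF10A replicate b or c (BH-adjusted p up to 0.0601). It was higher in MCF10CA1h than in MCF10A by 0.52 ± 0.17 (limma, BH-adjusted p = 0.0398). This last call was lost without MCF10A replicate a or b, MCF10AT1 replicate a or any MCF10CA1h library (limma, BH-adjusted p up to 0.125). It was also lost with the replicate block (BH-adjusted p = 0.0649) and without a filter (BH-adjusted p = 0.0954). The same held without the intensity trend (limma, BH-adjusted p = 0.0706) and with equal sums (BH-adjusted p = 0.106). An unnamed gene, ENSG00000279753, holds 14.5% of the 31-base words of CNN2 when strand is ignored and was at 148 to 1259 normalized counts.

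CALD1 encodes caldesmon, which holds tropomyosin-bound filaments away from myosin. The MCF10A controls held 2933, 4494 and 3811 normalized counts and the knockdown libraries 3550, 5506 and 4996. The MCF10AT1 controls held 2378, 1517 and 5199 and the knockdown libraries 863, 838 and 1329, and the MCF10CA1h controls held 1963, 2676 and 2120 and the knockdown libraries 2414, 1617 and 2071. All 3 MCF10AT1 knockdown libraries were below every other library of the series, although the MCF10AT1 controls spanned a 3.43-fold range. The log2 difference in MCF10AT1 was -1.43 ± 0.45 (limma, BH-adjusted p = 0.0777). It passed with the replicate block (BH-adjusted p = 0.00266), in the joint fit of 18 libraries (BH-adjusted p = 0.0043) and without control replicate b (-1.83, BH-adjusted p = 0.0254). In MCF10A it was 0.32 (95% interval -0.19 to 0.83) and in MCF10CA1h -0.15 (-0.51 to 0.20), with BH-adjusted p = 0.499 and 0.583 by limma. The change in MCF10AT1 was lower than that in MCF10A (log2 difference -1.75 ± 0.49, limma interaction, BH-adjusted p = 0.0158), which held when each library was left out. The change in MCF10CA1h exceeded that in MCF10AT1 by 1.27 (limma interaction, BH-adjusted p = 0.0115 with the replicate block and 0.0817 without it).

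**Figure D3:**
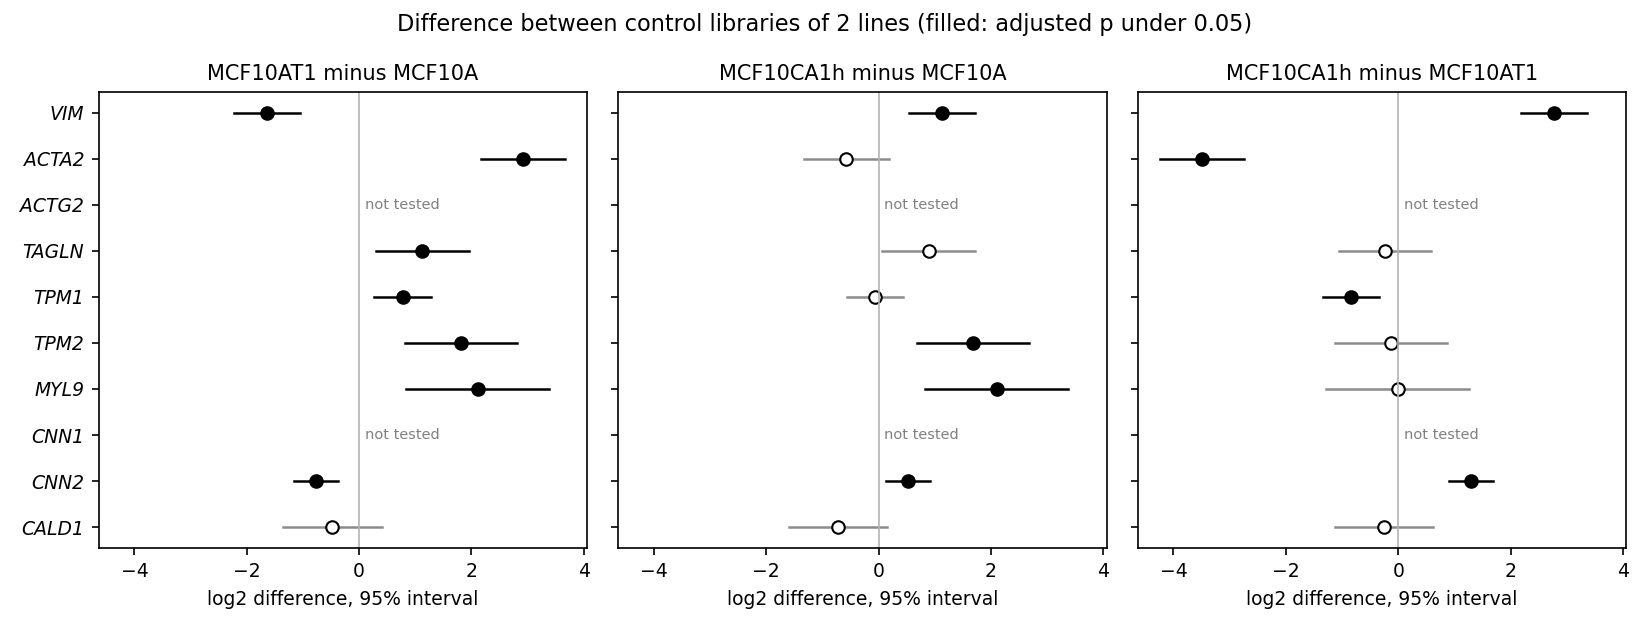
Log2 difference of each gene between the control libraries of 2 lines (x axis, log2), with 95% intervals from 1 limma fit of the 9 control libraries; filled points passed a BH-adjusted p under 0.05. ACTA2 is higher in MCF10AT1 than in MCF10A (2.91) and lower in MCF10CA1h than in MCF10AT1 (-3.49), and VIM goes the other way (-1.64 and 2.77).

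Levels of different genes were compared per 1000 bases of the main annotated transcript. On that scale VIM had the highest mean in MCF10A control (5806 normalized counts per 1000 bases), followed by TPM2 (2618) and CNN2 (2422), and TPM2 was highest in MCF10AT1 control (9155, with TPM1 at 2296 and VIM at 1821). In the MCF10AT1 knockdown libraries VIM (30576) and TPM2 (28553) were both far above TPM1 at 1570. ACTA2 ranged from 71.4 in MCF10CA1h control to 828 in MCF10AT1 control. TAGLN, MYL9, ACTG2 and CNN1 ranged from 0 to 145 over the 6 groups.

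The levels of several members moved with a property of the whole library, the balance of long and short transcripts. It was taken as the median log2 deviation of 3251 genes with transcripts of at least 5000 bases minus that of 2055 genes with at most 1500 bases, all with a mean of at least 50 normalized counts. The balance was 0.26 to 1.07 in MCF10A, -0.52, -1.27 and 0.70 in the MCF10AT1 controls, -1.300, -1.19 and -0.42 in the MCF10AT1 knockdown libraries and -0.29 to 0.11 in MCF10CA1h. Over the 18 libraries the Pearson correlation of the log2 level with the balance was -0.92 for TPM2, whose main transcript has 1190 bases, and 0.93 for CALD1, with 5011 bases (Spearman correlation -0.96 and 0.90, and Pearson r -0.90 and 0.94 without the 2 libraries farthest from the median balance). Within the 6 libraries of MCF10A, MCF10AT1 and MCF10CA1h it was -0.64, -0.87 and -0.53 for TPM2 and 0.75, 0.89 and 0.78 for CALD1. It was -0.81 for MYL9, -0.66 for TAGLN and -0.46 for VIM over the 18. These are descriptions over libraries that share lines and clones, and both genes are among those counted. With the balance as a covariate, chosen after the values were seen, the MCF10AT1 difference was 1.10 for TPM2 (limma, BH-adjusted p = 0.00807) and -0.90 for CALD1 (limma, BH-adjusted p = 0.0088). Of the 7 control calls between MCF10AT1 and MCF10A, 4 no longer passed by limma, TPM2 (0.69, BH-adjusted p = 0.0639), MYL9 (1.34, BH-adjusted p = 0.211), TAGLN (1.13, BH-adjusted p = 0.148) and TPM1 (0.42, BH-adjusted p = 0.186). MYL9 between control MCF10CA1h and MCF10A did not pass either (1.49, limma, BH-adjusted p = 0.0748), and the difference of CALD1 between control MCF10AT1 and MCF10A changed sign from -0.47 to 0.52. The VIM call in MCF10AT1 held. Of 74 values of members and METTL3, 52 kept their direction and side of the threshold with this covariate, 5 calls were lost, 11 were gained and 6 values changed sign.

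**Figure D4:**
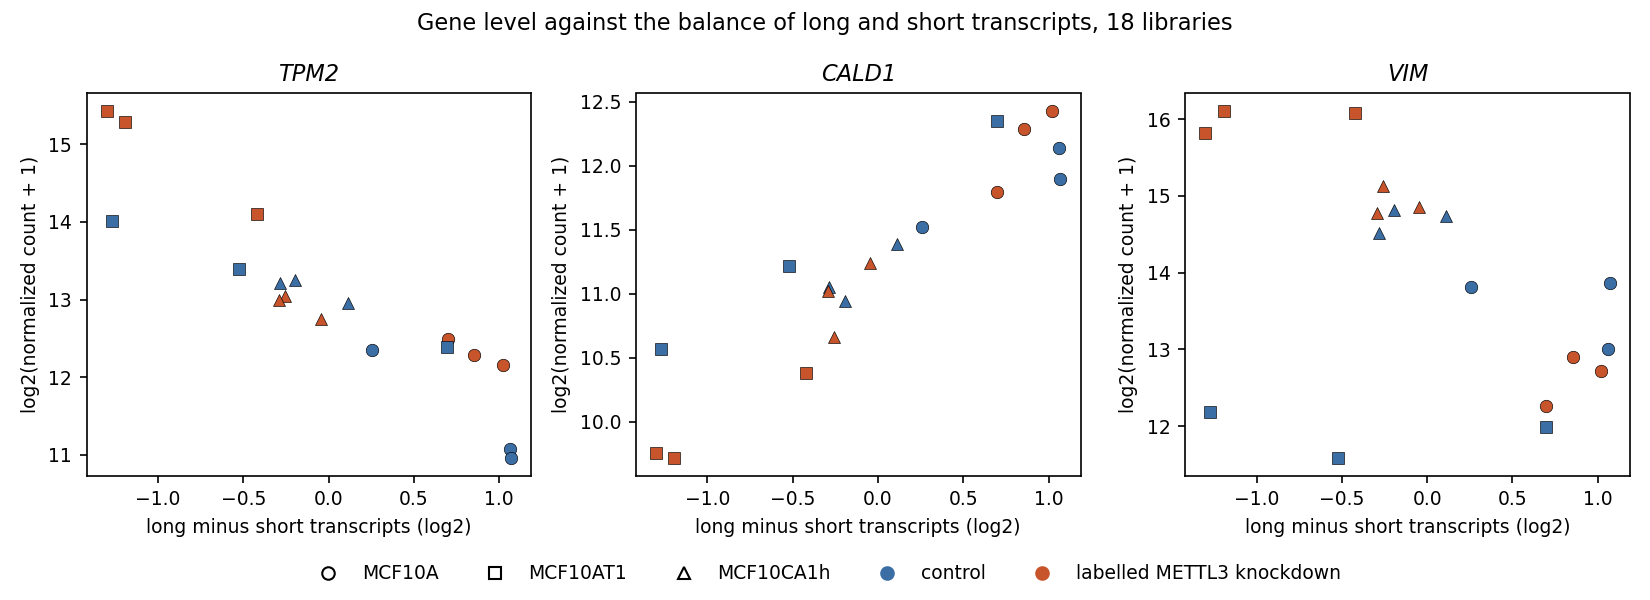
Log2 level of TPM2, CALD1 and VIM (y axis, log2 of normalized count plus 1) against the balance of long and short transcripts (x axis, log2) in 18 libraries; symbols mark the 3 lines, blue control and orange libraries labelled METTL3 knockdown. TPM2 falls (r = -0.92) and CALD1 rises (r = 0.93) with the balance, and VIM is highest in the 3 MCF10AT1 knockdown libraries, at 57647 to 70635 normalized counts.

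Non-muscle actomyosin, the contractile machinery of all cells, was represented by 13 other genes. Among all tested genes, the shares called higher and lower were 1.16% and 1.49% in MCF10A, 7.07% and 5.96% in MCF10AT1 and 7.91% and 4.85% in MCF10CA1h. With the knockdown label in MCF10A, 3 of 13 were lower and 0 higher, MYH14 (log2 difference -3.48), TPM4 (-1.12) and ACTB (-1.04), with a list median of -0.59. In MCF10AT1 0 of 12 passed by limma, with 2 at an unadjusted p under 0.05. In MCF10CA1h 6 of 12 were higher and 0 lower, with MYL6 at 0.63, TPM4 at 0.60 and MYL12A at 0.39. The list sum was 242285 to 323034 normalized counts in MCF10A control and 154505 to 173182 in its knockdown libraries, and 276148 to 288131 and 331628 to 424768 in MCF10CA1h.

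SRF and its cofactors MRTFA and MRTFB did not pass by limma in any line. Of 18 tested genes that link or crosslink actin, 1 was lower in MCF10A, FHL1 (-2.92). In MCF10AT1 4 were higher, among them FHL1 (3.54) and CSRP1 (1.80), and FLNA was lower (-4.28). In MCF10CA1h 9 were higher and 0 lower, with FHL1 at 1.13 and SYNPO at 1.08. FHL1, a LIM-domain protein of muscle, thus passed in all 3 lines, downward in MCF10A and upward in MCF10AT1 and MCF10CA1h.

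Other filament genes gave 2 higher of 3 tested in MCF10AT1, NES (8.67), the nestin of progenitor cells, and SYNM (3.28), the synemin that joins vimentin filaments. NES was at 0 in the 3 MCF10AT1 controls, at 357 to 494 in the knockdown libraries and at 1113 to 1846 in MCF10CA1h, so the fitted difference is no measured fold. Like MYH14 in MCF10A, which was under 10 on average in the knockdown libraries, it passed the level limit only through the group where it was high. In MCF10CA1h PLEC (0.83), the linker plectin, was higher, and in MCF10A 0 of 2 passed by limma, with 1 at an unadjusted p under 0.05.

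**Figure D5:**
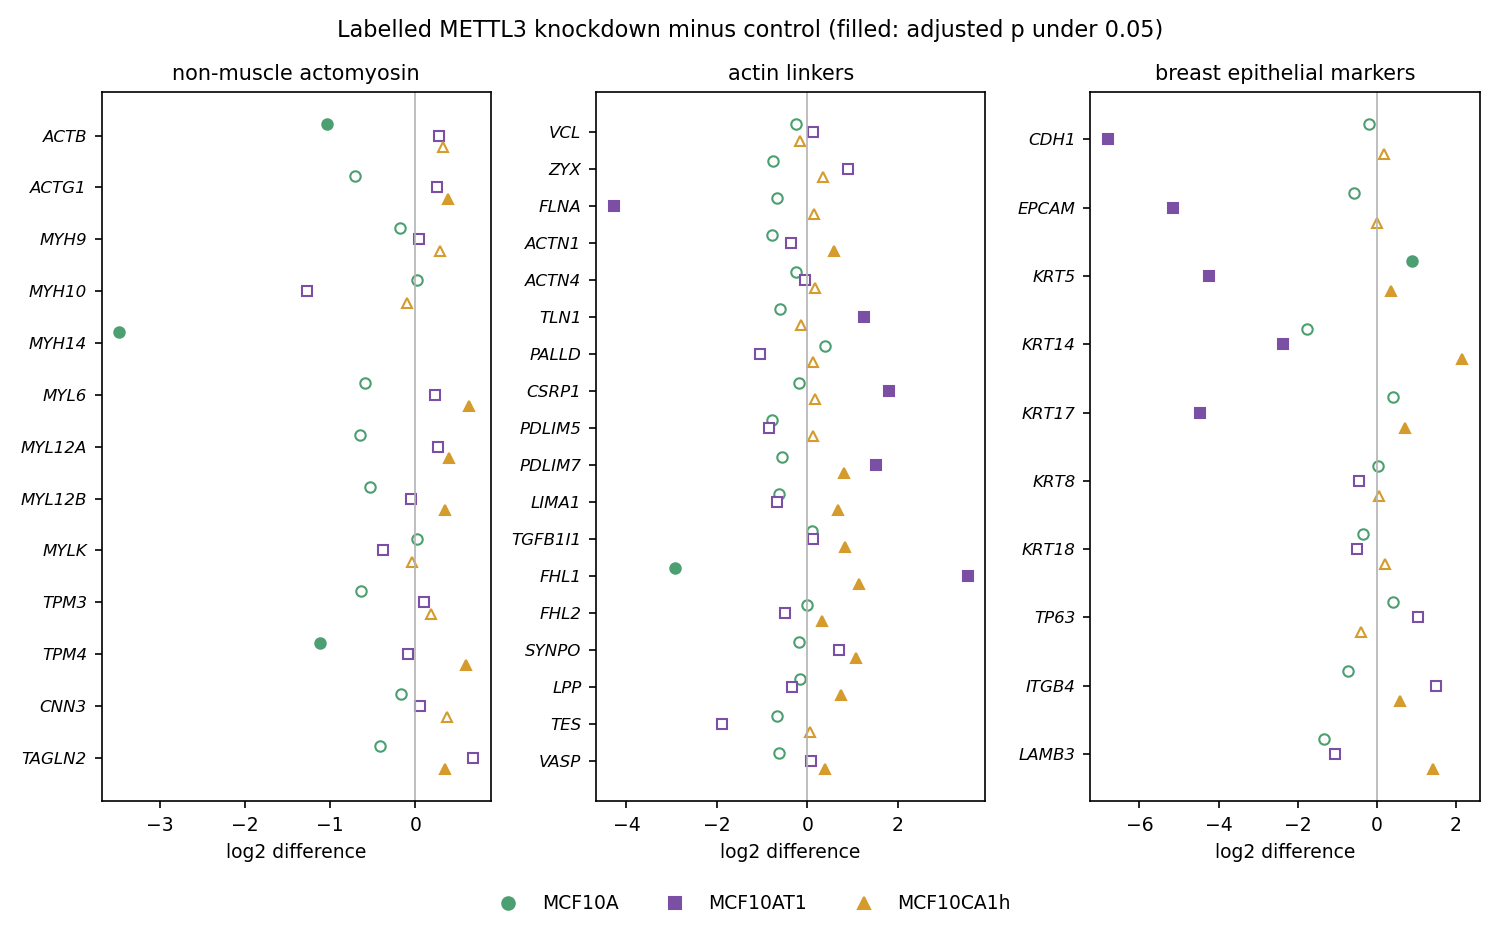
Log2 difference between libraries labelled METTL3 knockdown and control (x axis, log2) for 3 lists of other genes in 3 lines; filled symbols passed a BH-adjusted p under 0.05 by limma. In MCF10CA1h 9 of 18 actin linkers and 6 of 12 tested actomyosin genes are filled to the right of 0, and in MCF10AT1 CDH1 (-6.79), EPCAM (-5.16) and KRT17 (-4.47) are far to the left.

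In MCF10AT1, where VIM was higher with the knockdown label, 5 of 10 epithelial markers were lower and 0 higher. The largest differences were CDH1 at -6.79, EPCAM at -5.16 and KRT17 at -4.47. ITGB4 was at 21514 to 51829 normalized counts in the controls and 48088 to 167977 in the knockdown libraries. TP63 was at 111 to 745 and 411 to 749, and neither gene passed. CDH1, the cadherin of epithelial junctions, was at 3475, 2105 and 6138 normalized counts in the controls and at 11.6, 31.7 and 79.2 in the knockdown libraries. The summed level of the 10 markers was 133963 to 215836 in the controls and 107100 to 202687 in the knockdown libraries. In MCF10CA1h 5 of 10 were higher, with KRT14 at 2.15, LAMB3 at 1.43 and KRT17 at 0.71, and the sum went from 350243 to 381372 in controls to 485188 to 534735. In MCF10A KRT5 was higher (0.90) and the sums overlapped. In the 15 libraries of the other groups CDH1 was at 2105 to 8321, and the 3 MCF10AT1 knockdown libraries were all below them.

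Markers of other cell types were measured because vimentin and the smooth muscle genes are abundant in stroma. Of the smooth muscle markers, PLN, LMOD1 and KCNMB1 were at 0 to 7.48 normalized counts, DES at 0 to 19.5 and MYH11 at 2.94 to 31.2 in the 18 libraries. DES was highest in replicate a of the MCF10AT1 knockdown, the library in which TAGLN, MYL9 and ACTG2 stood apart. The sum of 11 smooth muscle markers there was 2242, against 2604 and 1295 in replicates b and c. Most of these sums came from SMTN, at 1875, 2407 and 1152 in replicates a, b and c. SYNM (236, 126 and 59.8), SYNPO2 (61.1, 27.6 and 24.9), PGM5 and LDB3 were also highest in replicate a. SMTN, MYH11, LMOD1 and HSPB6 were not. The only smooth muscle markers that passed were SMTN in MCF10A (-1.74) and SYNM in MCF10AT1. The 10 fibroblast markers summed to 470 to 740 in the MCF10AT1 controls and 2816 to 4596 in the knockdown libraries. THY1 was at 0.87 to 1.91 and 1200 to 2557 and COL3A1 at 0 to 2.25 and 385 to 1208, past the level limit only through the knockdown libraries. COL1A1 was at 46.2 to 211 and 60.65 to 108, PDGFRB at 9.82 to 31.4 and 13.5 to 26.8, DCN at 264 to 538 and 429 to 976, and FAP at 42.3 to 80.8 and 74.9 to 157. COL1A2, LUM and PDPN were at 0 in all 3 controls and at 0 to 12.0 in the knockdown libraries. By limma 2 of 6 tested were higher and 0 lower. In MCF10CA1h the fibroblast markers summed to 1478 to 1818 and 2735 to 2824, with FAP (0.96) and DCN (0.87) higher and COL3A1 lower (-1.22). In MCF10A they summed to 1783 to 2176 and 1465 to 4423 and 0 of 3 passed by limma, with 3 at an unadjusted p under 0.05.

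Pericyte markers summed to 600 to 1903 in the MCF10AT1 controls and 1620 to 2140 in the knockdown libraries, with MCAM (3.32) and CSPG4 (3.17) higher and NOTCH3 lower (-3.22), and to 421 to 564 and 712 to 945 in MCF10CA1h, with MCAM higher (0.98). In MCF10A they summed to 348 to 587 and 240 to 896. Endothelial markers summed to 53 to 889 in all libraries, with PECAM1 lower in MCF10CA1h (-1.20). In MCF10A they summed to 63 to 242 in controls and 349 to 557 in knockdown libraries. There PECAM1 was at 15.9 to 196 and 332 to 531, and ESAM at 2.60 to 6.89 and 10.3 to 20.5. KDR was at 13.4 to 21.6 and 0 to 4.39 and TEK at 11.9 to 25.0 and 0.96 to 5.33, past the level limit only through the controls. By limma 0 of 3 tested passed, with 3 at an unadjusted p under 0.05 and a median log2 difference of -2.47. Leukocyte markers summed to 803 to 1529 in the MCF10AT1 controls and 1972 to 2965 in the knockdown libraries, where PTPRC, CD3E and LYZ were at 0. Most of these sums came from CD14, at 517 to 1378 and 1745 to 2343, and 0 of 2 tested markers passed by limma. In MCF10A the leukocyte markers summed to 754 to 2115 and 319 to 551, while in MCF10CA1h CD68 was higher (1.05) and CD14 lower (-1.14). The part of these markers in the results on VIM, TAGLN and MYL9 was not tested.

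The genes whose levels followed each member most closely over the 18 libraries were ranked by the Pearson correlation of log2 levels among 15889 genes. FN1 (r = 0.97), PDE1C (0.97) and PTX3 (0.96) followed VIM. FN1, the fibronectin of the extracellular matrix, was at 65.1 to 81.9 normalized counts in the MCF10AT1 controls and at 55947 to 134507 in the knockdown libraries. ZNF467, BFSP1 and PWWP2B (r = 0.93 to 0.94) followed ACTA2, and TUBA1A (0.90), APOL2 (0.90) and CYREN (0.89) followed TAGLN. S1PR2 (0.92), C14orf119 (0.91) and SRI (0.88) followed TPM1. DPM3 (0.98) was nearest to TPM2, with ENSG00000206567 and ZNF428 next, and SYNPO (0.93), a synaptopodin of actin bundles, was nearest to MYL9. UBE2N (0.98), CARD10 (0.96) and WSB2 (0.95) followed CNN2, and MAP4K5 (0.98), DDX18 (0.97) and RMND5A (0.97) followed CALD1. ACTG2 and CNN1 were too low for their nearest genes, with r up to 0.91 and 0.83, to be read. These 18 points share lines, clones and the transcript length balance.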

How the data were processed

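Stranded libraries were read as 100-base pairs (kit: ribosomal RNA depletion, while the labels name polyA RNA). Per the labels, the authors quantified reads with kallisto 0.46.1 against hg38 and deposited 1 table of DESeq2 1.26.0 normalized counts per gene, a signal from which whole reads could not be recovered, so limma was used in place of a count test. The columns were matched to samples by name, and no sample column was left out. Members were all 10 genes; from each other list, at most the 3 called genes with the largest difference per line were named, with the 3 nearest genes of each member. The members and lists were chosen with earlier results of these data known. Limma 3.58.1 in R 4.3.3 was fitted on log2(normalized count + 1) to genes with a mean of at least 10, on 6 libraries per line, on the 9 controls, and on all 18 for interactions, with Benjamini-Hochberg adjustment over all genes of a fit and a threshold of 0.05. Log2 differences are on that scale, and folds are ratios of group means. The fit was tested on simulated data. Same-letter libraries deviated together in MCF10A (r = 0.22, 0.20 and 0.12) and MCF10AT1 (r = 0.11, 0.29 and 0.48), and less so in MCF10CA1h (r = -0.011 to 0.046). Between control libraries of different lines, same-letter r ranged from -0.27 to 0.28, and libraries of different letters were not compared. Whether the letters pair libraries is therefore not shown, and blocked values are printed as an alternative where a call changed. Alternatives were other pseudocounts, filters, scaling, no intensity trend, a stricter threshold, the block, a joint fit, each library left out and, added after seeing the data, the length balance as a covariate. Depth is unknown, so no counting intervals are given. Gene symbols and coordinates came from GENCODE v44, promoters from RefSeq (GRCh38.p14). TAGLN and MYL9 promoters are not shown. Genes of the lists without a row were not analysed here. A gene list and a gene of another list are not reported here.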

Additional observations from a re-analysis of the deposited data

Results flagged for a closer look

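The change with the knockdown label differed between lines for 4 members, by the interaction contrasts of 1 limma fit of the 18 libraries without the replicate block. With the block, VIM and MYL9 (MCF10CA1h minus MCF10A, BH-adjusted p = 0.0286 and 0.0389), MYL9 (MCF10AT1 minus MCF10A, BH-adjusted p = 0.0163), TPM1 and CALD1 (MCF10CA1h minus MCF10AT1, BH-adjusted p = 0.0397 and 0.0115) passed as well. The MCF10A side of both MYL9 values rests on 0 to 10.04 normalized counts. MYL9 entered this fit only through the other lines, so these MYL9 calls are no support for a difference between lines. For VIM the change in MCF10AT1 minus that in MCF10A was 5.02 on the log2 scale, and the change in MCF10CA1h minus that in MCF10AT1 was -3.86. For CALD1 the change in MCF10AT1 minus that in MCF10A was -1.75. For TPM2 the change in MCF10CA1h minus that in MCF10AT1 was -1.89. For TAGLN the change in MCF10CA1h minus that in MCF10A was 3.49, just past the threshold. These values share control libraries with the comparisons of each line.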

How the results depend on the processing

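The number of members that passed was 0, 1 and 2 with the knockdown label in MCF10A, MCF10AT1 and MCF10CA1h, 7, 4 and 4 between controls (MCF10AT1 against MCF10A, MCF10CA1h against MCF10A, MCF10CA1h against MCF10AT1) and 2, 1 and 2 for the differences between lines in the same order. The share of all tested genes moved with the settings too and is given in the same order. With the replicate block the numbers were 1, 3, 2, 6, 3, 4, 3, 3 and 4 (7.6, 24.5, 12.4, 23.5, 34.6, 17.6, 28.9, 8.07 and 24.8% of all genes), and in the joint fit of 18 libraries 1, 3, 0, 5, 4 and 4 for the first 6 (3.84, 32.4, 1.56, 38.3, 44.6 and 28.6%). With equal sums they were 0, 2, 2, 6, 3, 4, 2, 0 and 3 (2.5, 12.1, 13.7, 23.6, 35.4, 20.9, 21.3, 4.66 and 17.2%), and at an adjusted p under 0.01 they were 0, 1, 1, 2, 1, 3, 1, 0 and 1 (0.292, 6.29, 5.28, 7.83, 19.4, 8.75, 12.9, 2.12 and 10%). With the length balance as a covariate they were 2, 3, 3, 3, 4, 5, 2, 3 and 4 (9.55, 21.4, 15.7, 14, 42.1, 43.1, 30.2, 13 and 26.6%). For MCF10CA1h minus MCF10A the number was 0 with a pseudocount of 0.5, without a filter or without the intensity trend, and 2 with a pseudocount of 5 (5.04, 1.9, 4.81 and 5.93%). With each library left out the 9 numbers ranged over 0 to 1, 1 to 3, 1 to 2, 2 to 7, 1 to 5, 3 to 4, 2 to 4, 0 to 2 and 1 to 3, and the shares of all genes over 0.337 to 9.2, 6.35 to 15.2, 7.2 to 11.8, 10.6 to 52.1, 23.4 to 48.8, 10.2 to 35.8, 17.6 to 32, 2.96 to 7.69 and 13.4 to 26.5%. Leaving a library out of the control fit leaves a group of 2, with a spread shared among groups.

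Signs changed only for members that had not passed. With equal sums MYL9 between control MCF10CA1h and MCF10AT1 became 0.10 and ACTA2 in MCF10AT1 minus MCF10A became -0.12. With the length balance the former became 0.15 and the latter -0.17, CALD1 became 0.52 in control MCF10AT1 and 0.063 in control MCF10CA1h, each against MCF10A, TPM2 became 0.11 in control MCF10CA1h against MCF10AT1, and CNN2 became 0.10 in MCF10AT1 minus MCF10A. With each library left out, control MCF10CA1h against MCF10AT1 ranged from -0.54 to 0.57 for MYL9, -0.56 to 0.25 for TPM2 and -0.65 to 0.23 for CALD1. TPM1 between control MCF10CA1h and MCF10A ranged from -0.12 to 0.0039, and CALD1 with the knockdown label in MCF10CA1h from -0.29 to 0.0021. The MCF10AT1 minus MCF10A difference ranged from -0.39 to 0.42 for ACTA2, -0.15 to 0.097 for CNN2 and -0.30 to 0.11 for TPM1, and MCF10CA1h minus MCF10AT1 from -0.68 to 1.14 for MYL9. The causes were not tested. The block changed no call other than the 10 given beside the results. Of 74 values of members and METTL3, 73 kept direction and side of the threshold with either pseudocount, 70 without a filter, 70 without the trend, 67 with equal sums, 64 with the block, 60 at an adjusted p under 0.01 and 52 with the length balance, as did 42 of 50 in the joint fit, 69 of 70 with a mean of at least 50, and 702 of 804 values with a library left out.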
